A study of Mus musculus with 4 samples.

Results

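Nuclei with high Rorb transcript were selected from single-nucleus RNA-seq of mouse brain tissue labelled cortex, and 283 of the 37538 nuclei in those libraries met the rule. The series held 78728 nuclei in all. A nucleus was a member when it had at least 2 UMIs (unique molecular identifiers, each counted as 1 captured transcript) of Slc17a7 and at least 5 of Rorb. It could have at most 2 UMIs of Hs3st4, at most 2 of Tshz2, none of Gad1 or Gad2, and at most 1 UMI over Mog, Aqp4, Csf1r and Cldn5 together. The rule was meant for layer 4/5 excitatory neurons. It rests on counts in the same nuclei, so the levels of these genes are a description of the choice and not a result.

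The 4 libraries of the series were cortex and striatum of male C57BL/6J mice given AAV-CTRL or AAV-VEGF-C, with 1 library per group, each made from the pooled brain tissue of 5 mice aged 8 weeks. Both are adeno-associated viruses of serotype 9, which were injected into the cisterna magna, the fluid space under the cerebellum, when the mice were 4 weeks old. AAV-VEGF-C delivered full-length mouse VEGF-C, a growth factor of lymphatic vessels. AAV-CTRL delivered a soluble part of its receptor VEGFR3 that does not bind VEGF-C, so the control mice also received virus and a secreted protein. Mice within a pool cannot be told apart. A group was a single library, so no test was possible and each difference is between a pair of libraries. Every interval in parentheses is at 95% and covers counting error only.

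Excitatory neurons of the cerebral cortex release glutamate, which Slc17a7 (VGLUT1) loads into synaptic vesicles. They are ordered in layers that differ in their inputs and targets, and layer 4 is the main receiver of thalamic input in sensory areas. Rorb, a nuclear receptor of the ROR family, is widely used as a marker of layer 4 and of some layer 5 neurons. Rorb is not restricted to neurons, and astrocytes of the telencephalon also transcribe it.

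The cortex AAV-CTRL library held 110 members and the cortex AAV-VEGF-C library 173. Their medians were 4935 and 4415 UMIs and 2438.5 and 2215 genes per nucleus. The members carried 573119 and 822305 UMIs in sum, of libraries with 63165470 and 78332657. Rorb (chromosome 19, 18930605 to 19111196, minus strand, mm10) had 5 to 18 UMIs per member in AAV-CTRL, with a median of 6, and 5 to 21 in AAV-VEGF-C, with a median of 7. Slc17a7 had medians of only 2 and 3 UMIs, and 61 and 67 members sat at the lowest permitted count of 2. The 2 cortex libraries shared 94 barcodes, and no barcode was a member in both.

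Just inside the Rorb limit, at 5 UMIs, there were 49 and 48 nuclei, and just outside it, at 4 UMIs, there were 46 and 77. Kcnh5, a potassium channel gene, stood at 272 and 269 CPM (UMIs per 1000000 UMIs of the summed nuclei) inside and at 239 and 206 CPM outside. The counts passed the limit without a gap.

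The label was then checked against marker genes of other cell types, and over 1 in 3 members did not match it. Astrocytes, the glial cells that take up glutamate and supply neurons, are defined by genes such as Slc1a3 (the glutamate transporter GLAST), Gja1 (connexin 43) and Gli3 (a transcription factor of hedgehog signalling). The 6 genes Slc1a3, Gja1, Gfap, Aldh1l1, Slc4a4 and Gli3 were summed in each nucleus and divided by its UMIs. Slc1a2 was left out because neurons also carry its transcript. The sum fell mostly into 2 ranges. Above 10 UMIs per 10000 lay 37 of 110 members in AAV-CTRL (33.6%, 24.9 to 43.3) and 64 of 173 in AAV-VEGF-C (37.0%, 29.8 to 44.7). Their medians were 35.7 and 42.0 UMIs per 10000, against 1.25 and 1.71 in the remaining members. Only 8 and 11 members lay between 8 and 20. The values passed the limit without a wide gap, from at most 7.70 and 9.80 below it to at least 10.3 and 10.1 above it. The limit of 10 was set after these values had been seen.

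**Figure D1:**
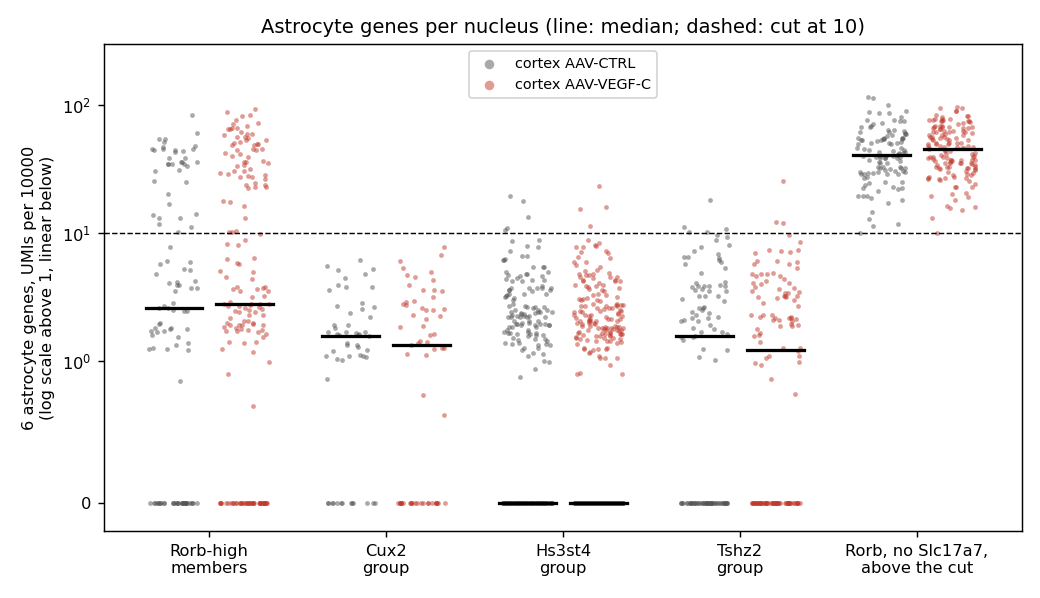
Summed level of 6 astrocyte genes in each nucleus, in UMIs per 10000 (log scale above 1, linear below), by group and by cortex library. Each point is 1 nucleus and each black line a median. The Rorb-high members lie mostly in 2 ranges. The upper range is that of Rorb nuclei without any Slc17a7 UMI, for which medians were 40.3 and 45.6 (these last were chosen to lie above the dashed limit).

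Other excitatory nuclei chosen with the same Slc17a7, Gad and glial limits rarely reached this upper range. The 3 comparison groups had at most 2 Rorb UMIs, and each stayed at 2 or under for the Hs3st4 and Tshz2 counts that did not define it. The Cux2 group (55 and 63 nuclei) had at least 5 UMIs of Cux2, a marker of upper layers. The Hs3st4 group (255 and 353) had at least 5 of Hs3st4 and 2 of Foxp2, markers of layer 6, and the Tshz2 group (113 and 132) at least 5 of Tshz2, a deep-layer marker. Above 10 per 10000 lay 0 and 0 nuclei of the Cux2 group, 5 and 4 of the Hs3st4 group and 5 and 3 of the Tshz2 group.

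The share of astrocyte-gene-high nuclei fell with the Slc17a7 count. Among nuclei that met every other limit, it was 81.8% in AAV-CTRL and 84.2% in AAV-VEGF-C at 0 Slc17a7 UMIs. At the rule's limit of 2 UMIs it was 39.3% (27.1 to 52.7) and 56.7% (44.0 to 68.8). At 5 or more it was 16.7% (2.09 to 48.4) of 12 nuclei and 10.5% (2.94 to 24.8) of 38. Median depth rose over the same steps, from 2089 and 2252 UMIs to 9073.5 and 7127.5.

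**Figure D2:**
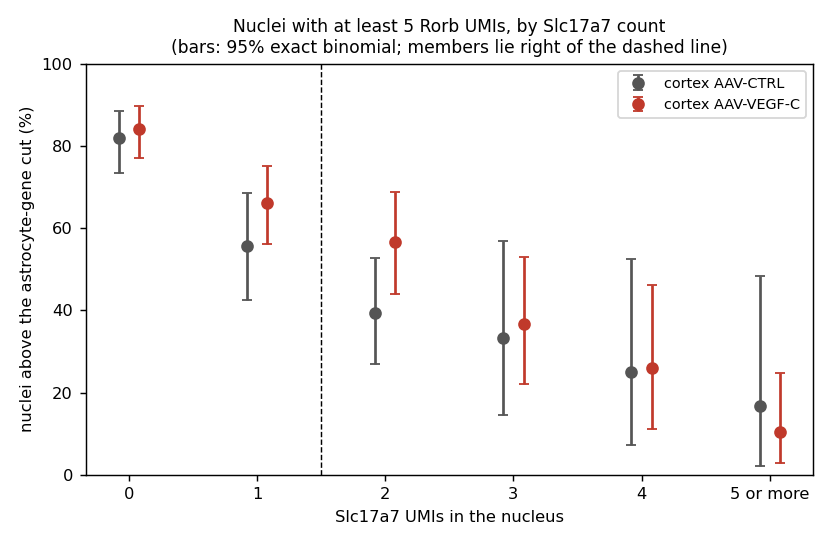
Percentage of nuclei above the astrocyte-gene limit (vertical axis) by Slc17a7 UMI count (horizontal axis), among nuclei with at least 5 Rorb UMIs that met the other limits, for the 2 cortex libraries. Bars are 95% exact binomial intervals. The percentage went from 81.8 and 84.2 at 0 UMIs to 16.7 and 10.5 at 5 or more, and the members lie right of the dashed line.

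At least 2 Slc17a7 UMIs were also found in nuclei that carried an oligodendrocyte gene. Of nuclei with at least 2 UMIs of Mog, a myelin protein gene of oligodendrocytes, 23.9% (21.2 to 26.8) of 949 in AAV-CTRL and 26.0% (23.5 to 28.5) of 1224 in AAV-VEGF-C had at least 2 Slc17a7 UMIs, at median depths of 1929 and 1962.5 UMIs. At least 5 were found in 2.63% and 3.43%. A count of at least 2 Slc17a7 UMIs was thus common in nuclei that carried a marker of another cell type. No limit was set on neuronal genes in these Mog nuclei and called doublets were kept, so some can hold neuronal RNA of their own. Doublets were called by Scrublet in 7 of 37 and 6 of 64 astrocyte-gene-high members, and in 5 of 73 and 3 of 109 of the others. The part of free RNA and of doublets in the astrocyte-gene-high members was not tested.

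Among the genes that most set all members apart from the 3 comparison groups were Rorb itself, which the rule chose, and Slc1a3, Plpp3, Gpc5, Prex2, Apoe, Ptprz1, Npas3, Zbtb20, Maml2 and Qk. Gpc5, which codes for a glypican, stood at 1138 and 1295 CPM in the members and at 34.7 to 173 CPM across the comparison groups. Of 928 genes with at least 100 UMIs in the members of each library, 28 (3.02%) were higher in all 6 ratios to other groups. Higher meant a log2 ratio of at least 0.58, the size of change used in the study's methods. Of 603 genes with at least 100 UMIs in every comparison group of each library, 7 (1.16%) were lower by as much. Each minimum was asked of the side where the genes are high, so the shares depend on it. Without the astrocyte-gene-high members 9 of the 10 genes other than Rorb were below 0 in at least 1 ratio, all but Gpc5, some of them only just. The members left out were chosen by 6 astrocyte genes. Slc1a3 is one of them, so its fall follows from the choice, and genes that vary with it can follow too. The counts became 14 of 693 (2.02%) and 6 of 603 (0.995%). Because the sum of the 6 genes fell mostly into 2 ranges, the members are described as 2 sets from here on. The name of layer 4/5 excitatory neuron was given to neither.

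The astrocyte-gene-high set (37 and 64 nuclei) carried further genes of astrocytes. Slc1a3 (chromosome 15, 8634124 to 8710764, minus strand) stood at 1284 and 1806 CPM, against 26.5 and 35.1 CPM in the low set. Slc1a3, Gli3 and Gja1 were among the genes with the highest ratios, but they are 3 of the 6 genes that made the split, so their difference describes the choice. Of the genes that the split did not use, Mertk, a receptor for engulfing cell debris, stood at 792 and 785 CPM against 6.62 and 14.3. Slco1c1 (a thyroid hormone transporter), Mfge8, Prex2, Acsbg1, Plpp3, Pla2g7 and Phkg1 were also among the highest. Median depth was 2325 and 2517 UMIs, below the 5771 and 5271 of the low set. Of 595 genes with at least 30 UMIs in this set in each library, 174 were at least 0.58 higher on the log2 scale in both libraries (29.2%), a count from which the genes of the split were not taken out. The minimum of 30 UMIs was asked of this set only, which favours genes high in it, so the share does not measure how far the sets differ.

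The genes lowest in the astrocyte-gene-high set relative to the low set were Pcdh15, Cntn5, Myo16, Kcnh5, Gria4, Nyap2, Tmem132d and Ptprk. Of 693 genes with at least 100 UMIs in the low set of each library, 304 were at least 0.58 lower in both libraries (43.9%). This minimum was asked of the low set only, which favours genes high there, so the share does not measure how far the sets differ. Pcdh15, a protocadherin, stood at 125 and 97.5 CPM against 830 and 1014 in the low set. The summed level of 25 transmitter release genes was 7674 and 8004 CPM against 12579 and 13078, and that of 31 potassium channel genes 10902 and 8178 CPM against 20901 and 20048. Not every neuronal list was lower, and 14 GABA receptor genes summed to 4154 and 4397 CPM against 4351 and 4404. After thinning each nucleus to 1500 UMIs, Syt1, the calcium sensor of synaptic vesicles, had a UMI in 77.1% and 71.4% of the high set and in 100% and 98.2% of the low set. The share in Mog nuclei was 75.1% and 69.8%. Rorb, which the rule used, stood at 2052 and 2381 CPM in the high set and at 1086 and 1339 CPM in the low set. Its median count was 5 and 6.5 UMIs in the high set and 6 and 7 in the low set. A fixed limit of 5 UMIs gives a higher CPM in shallower nuclei, so this difference describes the rule.

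A list of 10 thalamus-type genes was also higher in this set, at 509 and 672 CPM against 117 and 102. Its members that led were Tcf7l2 (234 and 246 CPM) and Plekhg1 (200 and 262 CPM). Slc17a6, a glutamate transporter of thalamic and other subcortical excitatory neurons, stood at 0 and 20.5 CPM and Gbx2 at 0 in both. The floor that 3 UMIs give in this set was 25.02 and 15.39 CPM.

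The low set (73 and 109 nuclei, with 453228 and 627398 UMIs) was set apart from the other excitatory groups by a different set of genes. After Rorb, the leading genes were Lhfp, Scube1, Kcnh5, Rcan2, Myo16, Brinp3, Thsd7a, Prr16, Kcnq3, Fhod3 and Fam19a2. Kcnh5 (chromosome 12), a voltage-gated potassium channel of the EAG family, stood at 360 and 367 CPM. It lay between 72.7 and 154 CPM in the comparison groups, so both libraries of the low set were above all 6 other values. The smallest of the 6 log2 ratios was 1.22. After thinning to 1500 UMIs, 38.4% and 37.6% of low-set nuclei had a Kcnh5 UMI, against 5.55% and 4.65% of Mog nuclei and 7.65% to 18.2% of nuclei in the comparison groups.

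Brinp3, expressed in the developing and adult nervous system, stood at 1180 and 1321 CPM. The comparison groups held 329 to 688 CPM, highest in the Tshz2 group. Kcnq3, a subunit of the M-type potassium channel that limits repeated firing, stood at 1176 and 1305 CPM against 674 to 761. Rcan2, an inhibitor of the phosphatase calcineurin, stood at 382 and 330 CPM against 92.9 to 170. The ranges of the low set and of the comparison groups did not overlap for these genes, which the ranking by smallest ratio picked for that reason.

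**Figure D3:**
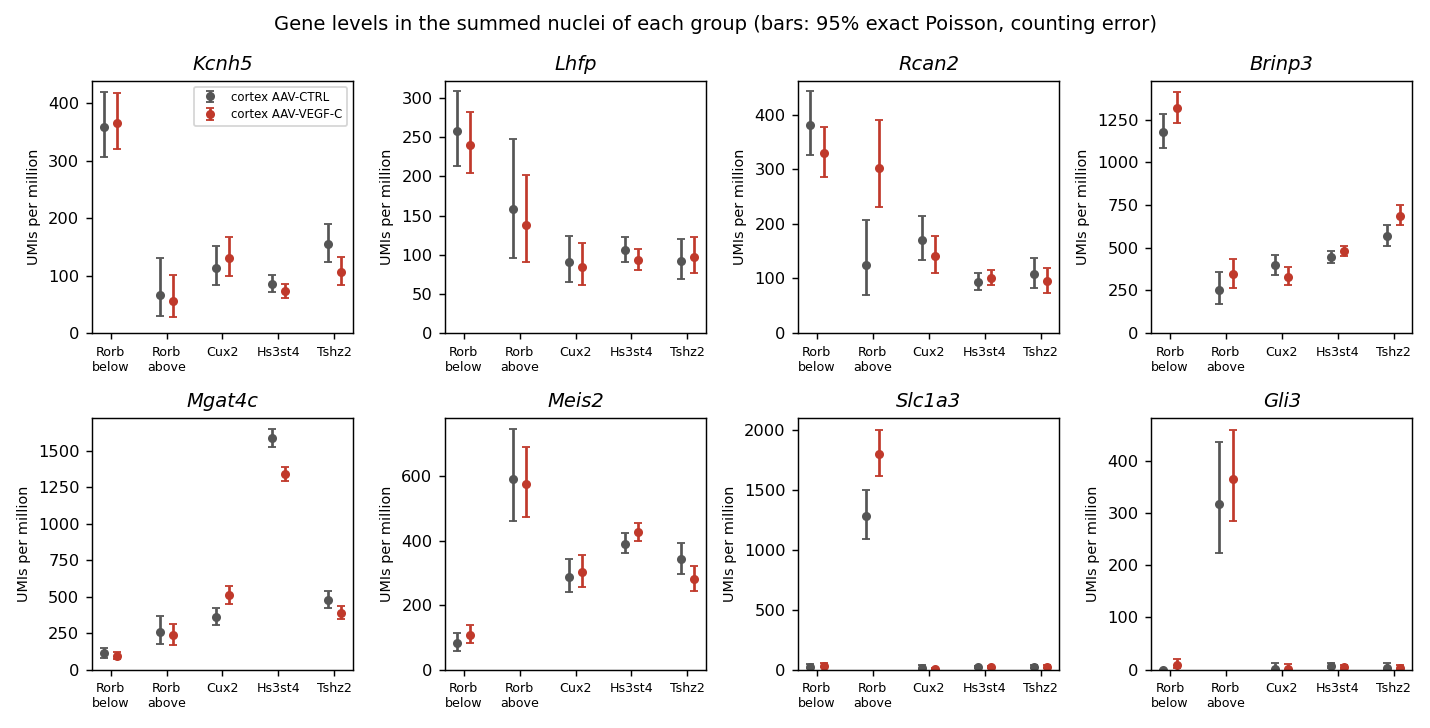
Levels of 8 genes in CPM (vertical axes) in the summed nuclei of the Rorb-high members below and above the astrocyte-gene limit and of the Cux2, Hs3st4 and Tshz2 groups, for the 2 cortex libraries. Bars are 95% exact Poisson intervals. Kcnh5, Lhfp, Rcan2 and Brinp3 are highest in the set below the limit, Mgat4c and Meis2 lowest there, and Slc1a3 and Gli3, which are among the genes that set the limit, are high only above it among these 5 groups.

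The genes lowest in the low set were Mgat4c, Dscaml1, Meis2, Ctnna3, Ntrk3, Lrrtm3, Ldb2 and Bcl11a. Mgat4c, a glycosyltransferase gene, stood at 113 and 97.2 CPM, against 1584 and 1339 in the Hs3st4 group and 363 to 509 in the Cux2 and Tshz2 groups. Meis2, a homeobox transcription factor, stood at 81.6 and 108 CPM against 281 to 426. Ntrk3, the receptor for neurotrophin 3, stood at 446 and 368 CPM against 635 to 1078. Bcl11a, a transcription factor also called Ctip1, stood at 212 and 230 CPM against 336 to 452.

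The layer 4 list was higher as a sum in the low set than in the 3 comparison groups. Not every gene was: of 5 with at least 50 UMIs in the low set, 1 was lower than in the Cux2 group in AAV-VEGF-C. In each library 4 of the 5 were higher than in that group beyond counting error. The summed level of 9 layer 4 genes was 1271 and 1274 CPM, against 696 and 734 in the Cux2 group, 334 and 250 in the Hs3st4 group, 622 and 604 in the Tshz2 group and 484 and 364 in the astrocyte-gene-high set. Kcnh5, Il1rapl2 and Cux1 made up most of that sum. Il1rapl2, a synaptic adhesion gene of the interleukin 1 receptor family, stood at 333 and 398 CPM, but 45 of its 260 UMIs among all AAV-VEGF-C members came from 1 nucleus. It did not rise steadily with Rorb. Nuclei that met every other limit held 272 and 252 CPM of it at 0 Rorb UMIs and 248 and 126 CPM at 8 or more. At the counts between, it varied from 75.6 to 995 CPM. Whrn stood at 44.1 and 63.8 CPM against 0 to 17.1 in the comparison groups. Rspo1, a Wnt signalling enhancer used as a layer 4 marker, stood at 30.9 and 27.1 against 2.34 to 18.4. Rspo1 had under 50 UMIs in the low set and was not among the 5 genes counted above. No difference beyond counting error is claimed for it. Scnn1a, the gene behind a widely used layer 4 mouse line, had 0 and 1 UMIs and was not detectable at this depth.

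Of the lists of other layers, the layer 2/3 list holds Cux2 and the layer 6 corticothalamic list holds Foxp2, which helped choose the Hs3st4 group, so their levels in those groups follow from the choice. Layer 2/3 genes summed to 1622 and 1552 CPM in the low set and to 2946 and 2826 in the Cux2 group. In the Hs3st4 and Tshz2 groups, which they did not choose, they summed to 648 and 647 and to 1487 and 1315. Cux2 itself stood at 207 and 183 CPM in the low set. Layer 6 corticothalamic genes summed to 415 and 477 CPM, against 338 and 304 in the Cux2 group and 903 and 761 in the Tshz2 group. Etv1, a layer 5 marker, stood at 66.2 and 41.4 CPM, against 124 and 222 in the Tshz2 group. The layer 5 intratelencephalic list summed to 157 and 151 CPM in the low set. It stood at 53.6 and 80.7 in the Cux2 group, 109 and 127 in the Hs3st4 group and 272 and 427 in the Tshz2 group. The layer 5 extratelencephalic list summed to 157 and 159 CPM, against 142 and 186, 384 and 400, and 340 and 573 in the same groups. Rora, a nuclear receptor of the same family as Rorb that was not part of the rule, stood at 2012 and 2391 CPM, above the 648 to 1522 CPM of the 3 other groups.

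The members differed among themselves in Cux2. In AAV-CTRL 17 of 110 (15.5%, 9.27 to 23.6) and in AAV-VEGF-C 16 of 173 (9.25%, 5.38 to 14.6) had at least 3 Cux2 and at most 1 Etv1 UMIs. Of these, 15 and 16 were in the low set, making 20.5% (12 to 31.6) of 73 and 14.7% (8.63 to 22.7) of 109. With at least 3 Etv1 and at most 1 Cux2 there were 1 and 0 members. Cux2-high members were deeper, with medians of 7315 and 6548 UMIs. Within the low set, Il1rapl2 had 11 and 5 UMIs in the Cux2-high nuclei, or 99.1 (49.5 to 177) and 46.4 (15.1 to 108) CPM. It stood at 409 (344 to 483) and 472 (414 to 534) CPM in the remaining 58 and 93 nuclei. Kcnh5 was higher in the Cux2-high nuclei in AAV-CTRL, at 505 (381 to 655) against 313 (256 to 378) CPM in the remaining ones. In AAV-VEGF-C its intervals overlapped, at 380 (273 to 516) and 364 (314 to 419) CPM.

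The libraries were next compared by AAV. Members made up 0.641% (0.527 to 0.772) of nuclei in AAV-CTRL and 0.849% (0.728 to 0.985) in AAV-VEGF-C, a log2 ratio of 0.41 (0.05 to 0.76). Among Slc17a7 nuclei without Gad transcripts the shares were 2.72% and 3.42%, with a ratio of 0.33 (-0.02 to 0.69). For the low set the shares of all nuclei were 0.425% and 0.535%, and the ratio was 0.33 (-0.11 to 0.78). For the astrocyte-gene-high set they were 0.216% and 0.314%, with 0.54 (-0.06 to 1.17). The interval of neither set lay clear of 0, so a difference in share was not detectable in either by itself. Slc17a7, which the rule used, stood at 558 CPM in AAV-CTRL members and 752 CPM in AAV-VEGF-C members. With at least 5 Slc17a7 UMIs there were 12 and 38 members, a log2 share ratio of 1.42 (0.45 to 2.49).

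Between AAV labels, 43 of 1225 genes with at least 200 UMIs over the members of both libraries were higher in AAV-VEGF-C by at least 0.58 on the log2 scale (3.51%) and 4 were lower (0.327%), around a median of -0.01, so 47 genes or 3.84% were past it in either direction. In the low set 27 of 887 were higher (3.04%) and 6 lower (0.676%), around a median of -0.02. Mitochondrial and ribosomal protein genes made up 14 of the 43, namely 6 of the 9 mitochondrial transcripts and 8 of the 17 ribosomal protein genes tested. The ribosomal genes were grouped after their values had been seen.

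The 13 mitochondrially encoded transcripts, which code for respiratory chain subunits, summed to 5105 CPM in AAV-CTRL members and 8552 CPM in AAV-VEGF-C members, a log2 ratio of 0.74 (0.68 to 0.81). The ratio was 0.73 (0.65 to 0.80) in the low set. It was 0.63 in the Cux2 group, 0.71 in the Hs3st4 group, 0.58 in the Tshz2 group and 0.42 over all nuclei that were not members. Mitochondrial transcripts are made outside the nucleus. The libraries thus differed in them in every group measured, and whether this touched other genes was not tested.

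The 10 named genes with the highest ratios were Cst3, Pcp4, Clu, Map1a, Kcnk2, Nisch, Eif1, Sncb, Tuba4a and Pcdh17. Pcp4 (chromosome 16, 96467606 to 96525793, plus strand), a calmodulin regulator, had 99 and 272 UMIs, or 173 and 331 CPM, with a log2 ratio of 0.94 (0.60 to 1.28). In the low set it stood at 130 and 277 CPM, with 1.09 (0.66 to 1.54). The ratio was 0.71, 0.75 and 0.38 in the Cux2, Hs3st4 and Tshz2 groups and 0.46 over all other nuclei. Pcp4 was therefore higher in AAV-VEGF-C in each of these groups.

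Cst3, the protease inhibitor cystatin C, and Clu, a secreted chaperone, are abundant in astrocytes. Cst3 stood at 262 and 514 CPM in all members, a ratio of 0.97 (0.70 to 1.25), but at 99.3 and 142 CPM in the low set, 0.51 (-0.02 to 1.07). Clu stood at 143 and 274 CPM, 0.94 (0.56 to 1.32), and at 59.6 and 84.5 in the low set, 0.50 (-0.19 to 1.23). Within the astrocyte-gene-high set Cst3 stood at 876 and 1714 CPM, 0.97 (0.65 to 1.30), and the ratio of Clu was 0.94 (0.50 to 1.41). Slc1a3 was also past 0.58 in all members, at 290 and 455 CPM, while in the low set it had 12 and 22 UMIs.

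The sign of the other 7 of these genes was the same in the low set. Map1a, a microtubule-associated protein, stood there at 104 and 194 CPM, 0.91 (0.41 to 1.42), and Tuba4a, an alpha-tubulin, at 86.0 and 153 CPM, 0.83 (0.28 to 1.41). Kcnk2, the TREK-1 leak potassium channel, stood at 148 and 223 CPM, 0.59 (0.16 to 1.04), but among all members with at least 8 Rorb UMIs its ratio was -0.043. In the low set alone, the leading genes after Pcp4 were Eif1, Htr1f, Pkm, a glycolytic enzyme, Eef1a1, a translation factor, Ckb, a creatine kinase, the axonal motor Kif1a, Faim2, Cox8a and Napb. Eef1a1 stood at 150 and 257 CPM, with 0.77 (0.36 to 1.21).

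**Figure D4:**
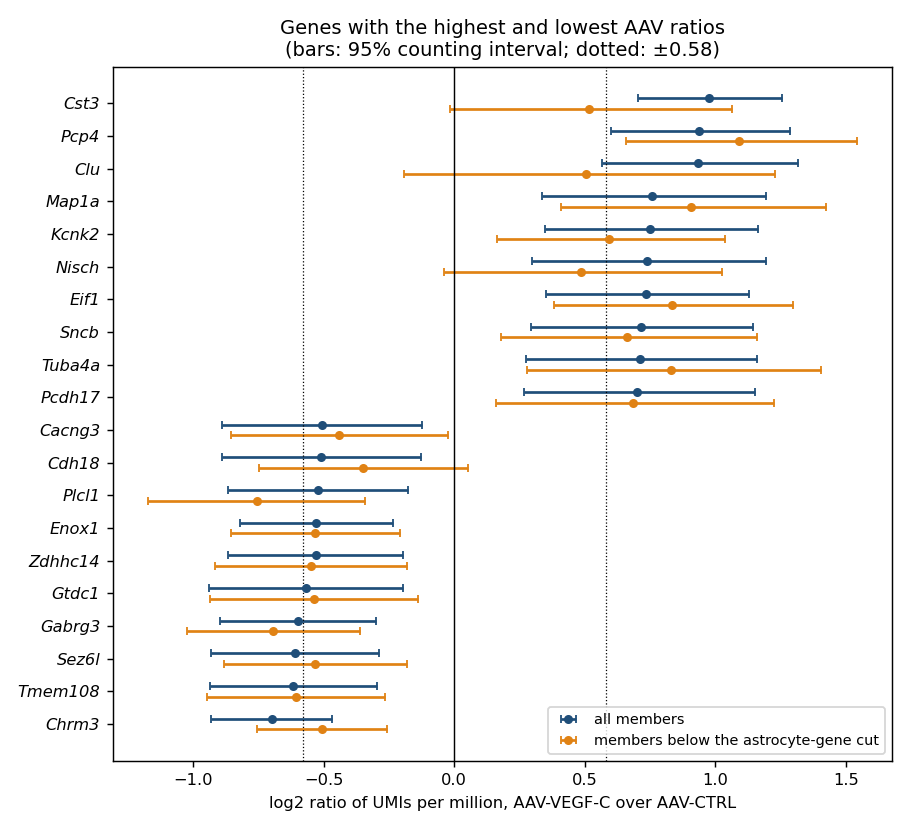
Log2 ratio of CPM, AAV-VEGF-C over AAV-CTRL (horizontal axis), for the 10 genes with the highest and the 10 with the lowest ratios in all members, with the same genes in the members below the astrocyte-gene limit. Bars are 95% counting intervals, dotted lines mark 0.58 in either direction. Pcp4 is at 0.94 and 1.09, while Cst3 goes from 0.97 to 0.51 and Clu from 0.94 to 0.50.

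The 10 lowest ratios belonged to Chrm3, Tmem108, Sez6l, Gabrg3, Gtdc1, Zdhhc14, Enox1, Plcl1, Cdh18 and Cacng3. Chrm3, the M3 muscarinic acetylcholine receptor, stood at 569 and 350 CPM, with -0.70 (-0.93 to -0.47). In the low set it stood at 607 and 427 CPM, -0.51 (-0.75 to -0.26), and in the astrocyte-gene-high set at 425 and 103 CPM, -2.05 (-2.88 to -1.28). Gabrg3, a GABA receptor subunit, stood at 337 and 223 CPM, -0.60 (-0.90 to -0.30), and in the low set at 368 and 228 CPM, -0.69 (-1.03 to -0.36). The ratio of Gabrg3 was -0.03 (-0.13 to 0.07) in the Hs3st4 group and 0.63 (0.42 to 0.84) in the Tshz2 group, the reverse of the members. Tmem108 had -0.61 (-0.95 to -0.27) in the low set and 0.39 (0.08 to 0.70) in the Hs3st4 group.

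Across 35 gene lists, 14 listed genes were past 0.58 between AAV labels in all members. This count was 2 with Rorb of at least 3 and 9 after thinning, where other numbers of genes were tested. Over all 1225 tested genes 47 were past it (3.84%). The 14 were 6 mitochondrial transcripts, Slc1a3, Kcnk2, Kcna2, Htr1f, Pcdh17 and Hspa8, which were higher, and Chrm3 and Gabrg3, which were lower. Their lists held 9 tested mitochondrial transcripts, 18 potassium channel, 13 cadherin and protocadherin and 9 GABA receptor genes. The neuromodulator receptor, astrocyte and heat shock lists held 3 tested genes each. Htr1f, a serotonin receptor, stood at 119 and 182 CPM in all members and at 128 and 228 CPM in the low set. None of 13 tested glutamate receptor, 13 sodium and calcium channel, 17 axon guidance, 19 synaptic adhesion or 20 transmitter release genes was past 0.58 in all members, and their medians lay between -0.11 and 0.07. With 3.84% of all genes past it, lists this short can hold none, so this is no result about these families. In the low set Grid1, a gene of the glutamate receptor list, was past it, at 395 and 261 CPM and -0.60 (-0.91 to -0.28). So was 1 of 13 tested sodium and calcium channel genes there, which was higher. The layer 4 list did not differ beyond counting error, at -0.06 (-0.21 to 0.09) in all members and 0.00 (-0.15 to 0.16) in the low set. The layer 6 corticothalamic list stood at 0.17 (-0.05 to 0.39). The layer 6 intratelencephalic list was lower, at -0.67 (-1.08 to -0.27), but it stood at 0.29 with Rorb of at least 3, and of the 102 AAV-CTRL UMIs of its most counted gene Zfp804b, 51 came from 1 nucleus.

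The question the study put to these nuclei was how brain cells respond to VEGF-C. VEGF-C acts through the receptors VEGFR3 (Flt4) and VEGFR2 (Kdr) with the coreceptor neuropilin 2 (Nrp2). Vegfc had 4 and 4 UMIs in the members, Flt4 had 0 and 1, and Kdr had 0 and 0. Counts of 0 to 4 are at or near the floor of 3 UMIs, and no fold is given for them. In all members Nrp2 stood at 29.7 and 31.6 CPM and Nrp1 at 48.9 and 35.3 CPM. The 13 genes of the VEGF list had a ratio of -0.08 (-0.45 to 0.30) in all members, and none reached 200 UMIs. Their sum was 146 and 112 CPM in the low set, a ratio of -0.38 (-0.89 to 0.12). In the astrocyte-gene-high set it was 325 and 375 CPM, with 0.20 (-0.38 to 0.80).

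Neurotrophins are secreted factors that act on neurons through Trk receptors. In all members Bdnf stood at 45.4 and 58.4 CPM, 0.36 (-0.35 to 1.11), and its receptor Ntrk2 at 1050 and 1131 CPM, 0.11 (-0.04 to 0.26). Ntrk3 stood at 426 and 366 CPM, -0.22 (-0.47 to 0.03), and the sorting receptor Sorcs3 at 361 and 287 CPM, -0.33 (-0.61 to -0.06). None of 6 tested genes of this list was past 0.58, and its median was 0.02. Over all genes 3.84% were past it, so a list of 6 can hold none and this is no result about the list. Its 19 genes summed to 3418 and 3369 CPM in the low set, a ratio of -0.02 (-0.12 to 0.07). In the astrocyte-gene-high set they summed to 2803 and 2883 CPM, with 0.04 (-0.16 to 0.24). The immediate early genes, which follow neuronal activity, had a ratio of -0.06 (-0.21 to 0.08) over 20 genes in all members. It was 0.02 (-0.14 to 0.18) in the low set and -0.37 (-0.71 to -0.04) in the astrocyte-gene-high set. The ratio was -0.03 (-0.20 to 0.15) in the Cux2 group, -0.10 (-0.19 to -0.007) in the Hs3st4 group and -0.17 (-0.32 to -0.01) in the Tshz2 group. Over all nuclei that were not members it was -0.11 (-0.12 to -0.09).

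**Figure D5:**
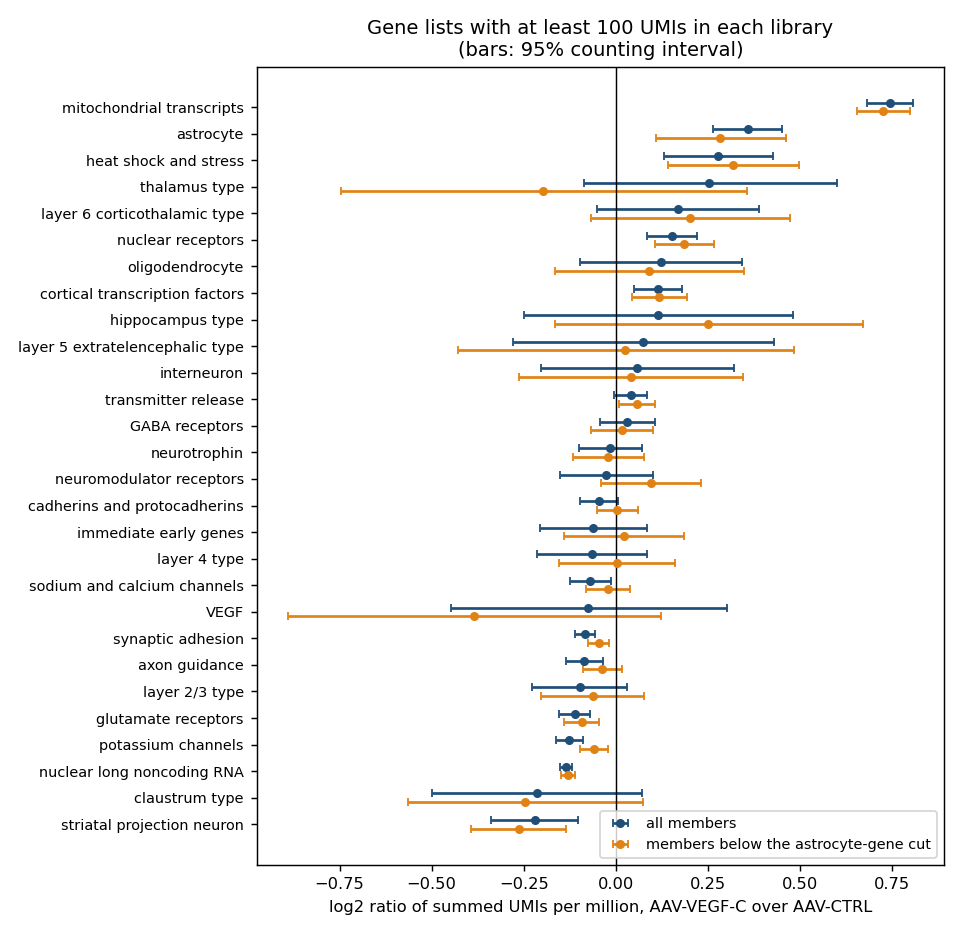
Log2 ratio of summed CPM, AAV-VEGF-C over AAV-CTRL (horizontal axis), for each gene list with at least 100 UMIs in each library, in all members and in the members below the astrocyte-gene limit. Bars are 95% counting intervals. Mitochondrial transcripts stand at 0.74 and 0.73, and the astrocyte list goes from 0.36 to 0.28.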

How the data were processed

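Per the labels and the study's methods, nuclei were isolated from frozen, pulverized tissue pooled from 5 mice per AAV group and run on 10x Genomics 3' chemistry. Each deposited matrix holds raw UMI counts, unnormalized. Its header names Cell Ranger 5.0.1, whereas version 5.1.1 and build mm10 stand in the submitters' processing notes. Whether intronic reads were counted is not given in the sources used here. The authors discarded nuclei under 200 UMIs, normalized and integrated the libraries in Seurat, removed clusters of low average count and compared nuclei by Wilcoxon tests. Their normalized values, clusters and test results were not used here. All deposited nuclei were read, and the shallowest had 719 UMIs.

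Members were found by the UMI limits given in the report, in both cortex libraries. Members and gene lists were chosen with earlier results of these data known, and the split by astrocyte genes, with its limit, was made after the values had been seen. UMIs were summed over the nuclei of a set and scaled to 1000000 (CPM). Shares have exact binomial (Clopper-Pearson), levels exact Poisson and ratios exact conditional binomial intervals, all at 95% and for counting error only. Depth was 63165470 and 78332657 UMIs. Named genes were, between AAV labels, the 10 highest and 10 lowest ratios among genes with at least 200 UMIs over both libraries and an interval without 0. Against the 3 other groups, they were the 12 with the highest smallest ratio and the 8 with the lowest largest ratio. Gene models without a name, mitochondrial and ribosomal protein genes were left out of these rankings. Genes of the lists, chosen for their roles, are named beside them. Items among these genes are not reported here. Called means past 0.58 on the log2 scale, with no test. Of 31053 genes, 71 rows with a repeated symbol were left out of rankings. Scrublet, from scanpy 1.11.5 and set to expect 8% doublets, was run per library, and called nuclei were kept: 4.44% and 5.99% of nuclei were called, and 12 of 110 and 9 of 173 members. Thinning drew 3000 UMIs (or 1500 for shares of nuclei) per nucleus and left out shallower nuclei, 28 and 51 members at 3000. Positions are those of GENCODE vM21, which uses the files' build. The ratio, its interval and the thinning were tested on simulated data. Alternatives were other UMI limits, scalings, gene minima, thinning and doublets left out.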

Additional observations from a re-analysis of the deposited data

Results flagged for a closer look

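Nuclei that meet the same rule were also present in the libraries labelled striatum, which no comparison of the report used. There were 16 in the library labelled striatum AAV-CTRL and 15 in that labelled striatum AAV-VEGF-C, more than the 3 that a count of 0 allows. They made up 0.0674% (0.0386 to 0.109) and 0.0859% (0.0481 to 0.142) of nuclei there. Their median depths were 8456 and 11477 UMIs, and 3 and 0 of them lay above the astrocyte-gene limit. Their source was not tested.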

How the results depend on the processing

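With 1 library per group, sampling of mice, tissue and library cannot be told apart from AAV. No paired analysis was possible because each group holds 1 library and the labels give no replicate numbers. Leaving out the members with high astrocyte genes, the Slc17a7 limit of 5 and the astrocyte-gene limits of 8 and 20 were chosen after seeing the data. The cause of the changes below was not tested, except that higher limits and thinning left fewer members or UMIs.

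Of 96 values that answer a comparison under an alternative, 59 stayed within 1.5 times or within error and 37 moved. Of 445 values for single genes and lists, 381 stayed, 53 moved and 11 changed sign. Other scalings moved the median ratio of all genes by -0.03 and -0.02.

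The 43 genes higher in AAV-VEGF-C became 402 at a minimum of 50 UMIs, 3 at 1000, 12 after thinning to 3000 UMIs, 28 with Rorb of at least 3, 13 with at least 8 and 27 without the astrocyte-gene-high members. The 4 lower genes became 180 at 50 UMIs, 0 at 1000, 7 with the mean CPM over nuclei, 7 with Rorb of at least 3, and 11 with at least 8. The 14 list genes became 9 after thinning and 2 with Rorb of at least 3. Apart from the mean CPM over nuclei, these settings also changed the number of genes tested, which was 887 for the 27. Their counts are thus not shares of the 1225 genes.

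The log2 share ratio of 0.41 became 0.96 with Rorb of at least 8, 1.13 with every nucleus thinned to 3000 UMIs before the rule and 1.42 with Slc17a7 of at least 5. The AAV-CTRL median of genes was 2116 with Rorb of at least 3, and thinning to 3000 UMIs gave 1673.5 and 1719.5 genes. Without the astrocyte-gene-high members the medians were 5771 and 5271 UMIs and 2630 and 2583 genes.

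The 28 genes higher than in the comparison groups became 56 with limits of 3 UMIs and 48 with the mean CPM over nuclei. They became 6 after thinning and 14 without the astrocyte-gene-high members. The 7 lower ones became 19 with the mean CPM and 1 after thinning. Apart from the mean CPM, these settings also changed the number of genes tested, which was 693 for the 14. The share of Cux2-high members was 24.5% and 16.8% with limits of 2 UMIs, where Etv1-high members made up 2.31% in AAV-VEGF-C, 6.10% and 4.10% after thinning, and 14.7% in AAV-VEGF-C without the astrocyte-gene-high members. With Slc17a7 of at least 5, 16.7% and 10.5% of members had high astrocyte genes.

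The layer 6 intratelencephalic list, at -0.67, stood at 0.29 with Rorb of at least 3, and Kcnk2, at 0.75, stood at -0.043 with at least 8. Without the astrocyte-gene-high members the smallest ratio over the comparison groups was -0.019 for Slc1a3, -0.78 for Plpp3, -0.49 for Prex2, -0.033 for Apoe, -0.45 for Ptprz1, -0.078 for Npas3, -0.11 for Zbtb20, -0.65 for Maml2 and -0.45 for Qk. Slc1a3 was among the genes by which those members were chosen, so its fall follows from the choice.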
